A study of Solanum dulcamara with 18 samples.

Results

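Uninfested leaves of flooded plants were compared directly with uninfested leaves of drought-treated plants of Solanum dulcamara, the bittersweet nightshade, a wild perennial relative of tomato and potato. The 6 libraries, 3 from flooding and 3 from drought, were chosen by their labels out of 18 in the series, and no control-water library entered this test. The question is how leaves under too much and too little water differ before any insect has fed. Greenhouse plants had received their water treatment for 5 days and then kept it for 2 more days, in these 6 samples without insects. The other samples used below were leaves of plants given 48 h of feeding by Spodoptera exigua (beet armyworm, a generalist caterpillar) under flooding, drought or control watering, and uninfested leaves under control watering, again with 3 samples each. The series design describes the samples as biological replicates. The labels give neither the depth of flooding nor the soil water content in drought, and they do not say whether a sample was 1 plant or several.

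Flooded soil holds little oxygen, so flooding acts on the leaf largely through the roots, with ethylene as a main signal. In dry soil, abscisic acid rises in the plant, closes the stomata and switches on genes that protect cells against water loss. Chewing insects induce the jasmonate pathway, and in many plants abscisic acid and jasmonate act together on parts of this response.

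The features measured were assembled contigs, stretches of transcript sequence built from reads, and the files pair none of them with a gene name. A contig is therefore described by its length and level, and its ID is given where it is among the largest changes. Leaf marker genes could not be looked up, so the labelled tissue was not checked against them. Of 24158 contigs, 823 had no read in any of the 6 libraries, and 19436 had enough reads to be tested. Library totals were 11357819, 12676409 and 12153857 reads in flooding and 13072415, 12534303 and 11013615 reads in drought, and they did not separate the groups (exact permutation test over 3 against 3, two-sided, p = 0.8). Fewer contigs had at least 1 read in flooding, 22308.7 ± 32.5, than in drought, 22525.7 ± 38.2 (SD, n = 3 each; exact permutation test, two-sided, p = 0.1, the smallest that 3 against 3 allows). The 100 contigs with the most reads took 20.4 ± 2.46% of reads in flooding and 19.4 ± 0.451% in drought (SD, n = 3 each; exact permutation test, p = 0.6).

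The flooding and drought libraries lay apart on the first principal component of log2 CPM (CPM, a contig's reads as a share of the library's total, after scaling the libraries to each other). This component held 47.1% of the variance, with flooding libraries at 40.1, 53.2 and 17.4 and drought libraries at -50.4, -29.8 and -30.4. Flooding replicate 3 lay closest to the drought libraries. The root-mean-square difference in log2 CPM between a flooding and a drought library ran from 0.591 to 0.818. Within a group it ran from 0.455 to 0.600 among flooding libraries and from 0.447 to 0.619 among drought libraries, so the highest within-group values passed the lowest between-group value.

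Flooding and drought leaves differed in 646 contigs, of which 189 were higher and 457 were lower in flooding. These are contigs with a Benjamini-Hochberg adjusted p under 0.05 in edgeR's quasi-likelihood test on the 6 libraries, and they make up 3.32% of the 19436 tested (0.972% higher, 2.35% lower). The lower contigs were 70.7% of the calls, while 48.2% of all tested contigs had a negative log2 fold change and the median over all tested was 0.01. At a fold of at least 2, 93 contigs were higher and 368 lower (2.37% of those tested). At a fold of at least 4 the numbers were 15 and 173, and at a fold of at least 8 they were 8 and 80. The libraries are bulk leaf RNA, so a lower level can come from fewer cells of a type or from less of the RNA per cell, and the 2 cannot be told apart. In all 646 called contigs the 3 libraries of 1 group lay above all 3 of the other, which was also true of 4692 of the 19436 tested (24.1%). The number of calls depended on each library: it was 149, 253 and 1067 without flooding replicate 1, 2 and 3, and 302, 189 and 301 without drought replicate 1, 2 and 3. Without flooding replicate 3, 57.0% of the calls were lower in flooding, against 70.7% with all 6 libraries. DESeq2 called 1460 contigs on the same libraries, a stricter filter on low counts left 430 calls, and an edgeR fit that takes its spread from all 18 libraries called 1550.

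**Figure D1:**
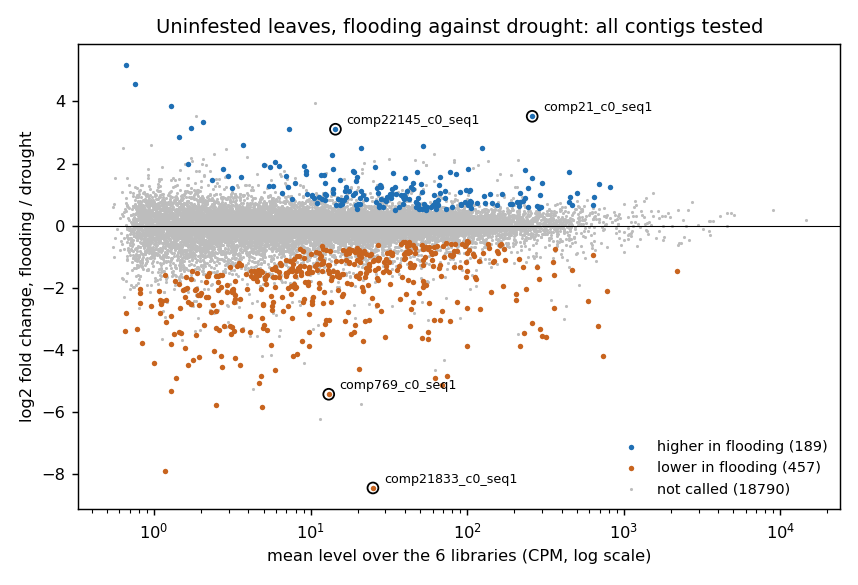
Log2 fold change of flooding over drought in uninfested leaves (vertical axis) against the mean level in CPM over the 6 libraries (horizontal log axis), 1 point per tested contig, with the 189 contigs higher in flooding and the 457 lower in flooding coloured. The lower contigs reach further from 0 than the higher ones, down to -8.45 against up to 3.52 among the contigs that passed the naming rule.

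The contigs lower in flooding changed more than the contigs higher in flooding. Their median absolute log2 fold change was 1.63, against 1.0 for the higher contigs and 0.21 over all tested. The median SE was 0.26 for the lower and 0.16 for the higher contigs. The higher contigs also held more reads, with a median over contigs of 38.0 CPM (mean of the 6 libraries), against 13.1 CPM for the lower contigs and 15.8 CPM over all tested. Contig length did not set the groups far apart, with medians of 1296 bases for the higher, 1236 for the lower and 1234 for all tested contigs. Calls were found from low to high read numbers. Between 10 and 100 CPM, 117 contigs were higher and 213 lower (3.41% of 9686 tested). Between 100 and 1000 CPM, 43 were higher and 44 lower (4.60% of 1892). Between 1 and 10 CPM, 27 were higher and 190 lower (3.06% of 7099).

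Of the calls whose mean over the 6 libraries reached 8 CPM, to which the ranks of rises and falls below refer, the largest rise in flooding was that of comp21_c0_seq1, a contig of 946 bases. Its level was 714, 321 and 399 CPM in flooding and 18.4, 52.3 and 54.3 CPM in drought. Every flooding library was far above every drought library, and the log2 fold change was 3.52 ± 0.51 (SE; edgeR quasi-likelihood test, adjusted p = 0.0218). Control-water leaves, at 4.33, 20.2 and 48.7 CPM, overlapped the drought leaves. The infested libraries, which took no part in choosing this contig, had 726, 434 and 621 CPM in flooding and 74.2, 28.9 and 23.0 CPM in drought, again with no overlap (log2 fold change 3.82 ± 0.49, edgeR adjusted p = 0.0638). Infested control-water leaves were split, with 327 CPM in replicate 2 against 3.20 and 7.45 CPM in the other libraries. The uninfested call was lost in 5 of 14 alternatives, among them those without flooding replicate 1 (edgeR adjusted p = 0.0615), flooding replicate 2 (0.0601) or drought replicate 2 (0.0646), and the fit to all 18 libraries (0.103).

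The next rise was that of comp22145_c0_seq1, a contig of 711 bases, and here drought stood apart from both other treatments. Its level was 22.9, 34.9 and 19.6 CPM in flooding and 2.22, 4.27 and 2.46 CPM in drought. Control-water leaves had 31.6, 34.3 and 14.6 CPM, a range that covers most of the flooding values and none of the drought values. The log2 fold change was 3.10 ± 0.32 (SE; edgeR adjusted p = 0.00663), and the call was kept in all 14 alternatives. In infested leaves the levels were 8.77, 6.38 and 8.70 CPM in flooding and 3.33, 1.74 and 1.44 CPM in drought (log2 fold change 1.86 ± 0.33, edgeR adjusted p = 0.0949). The infested groups did not overlap either.

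The largest fall in flooding was that of comp21833_c0_seq1, 511 bases long, which had only 5 reads in the 3 flooding libraries together and 1957 reads in the 3 drought libraries. The level was 0.336, 0 and 0.0753 CPM in flooding and 103, 13.5 and 33.0 CPM in drought. The log2 fold change was -8.45 ± 1.22 (SE; edgeR adjusted p = 0.0218), and with so few flooding reads its size is uncertain: it ran from -10.01 to -7.35 over the alternatives. Without flooding replicate 1, 2 or 3 the edgeR adjusted p was 0.084, 0.122 or 0.0774. Control-water leaves lay in between and close to each other, at 1.26, 0.991 and 1.04 CPM. In infested leaves the contig had 0.731, 2.92 and 0.283 CPM in flooding and 22.8, 19.2 and 45.2 CPM in drought (log2 fold change -4.54 ± 0.69, edgeR adjusted p = 0.083).

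The next fall was that of comp769_c0_seq1, 1278 bases long, for which flooding and drought overlapped in infested leaves. Uninfested levels were 0.755, 0.317 and 0.678 CPM in flooding and 53.4, 16.7 and 6.37 CPM in drought (log2 fold change -5.43 ± 0.95, SE; edgeR adjusted p = 0.0349). Uninfested control-water leaves, at 0.419, 1.12 and 0.781 CPM, were at the level of flooding. In infested leaves all groups were high: 35.0, 31.7 and 28.4 CPM in flooding, 34.0, 34.7 and 34.4 CPM in drought, and 24.4, 25.1 and 18.1 CPM under control watering. The infested flooding and drought levels overlapped (log2 fold change -0.12 ± 0.11, edgeR adjusted p = 0.657), while feeding raised the contig in control-water plants by 4.75 ± 0.27 on the log2 scale (edgeR adjusted p = 2.68e-05). The difference between the infested and the uninfested log2 fold change, 5.30 ± 0.96, did not pass the test over all contigs (edgeR adjusted p = 0.122). The uninfested call was lost without flooding replicate 1, 2 or 3 (edgeR adjusted p = 0.134, 0.18 and 0.103), without drought replicate 2 (0.0711) and with no filter on low counts (0.061).

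**Figure D2:**
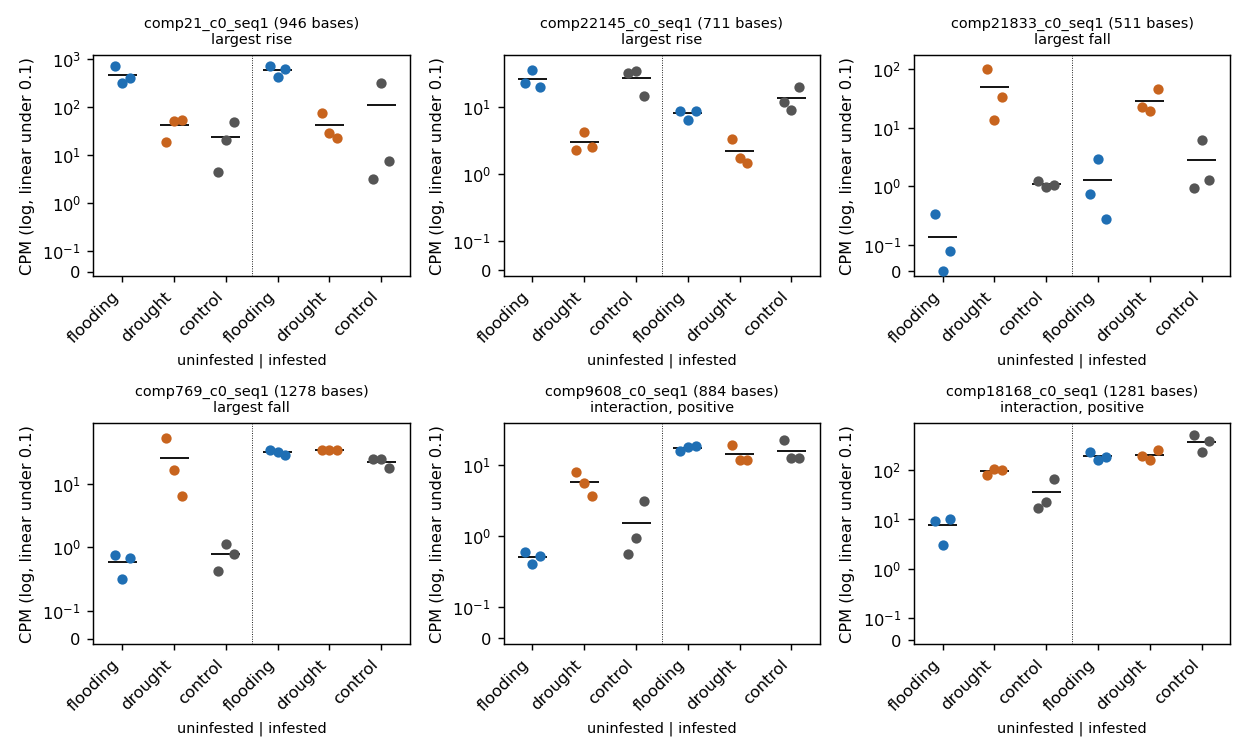
Level in CPM (log axis, linear under 0.1) of 6 contigs in each library, with a point per library and a bar at the mean of 3, uninfested groups left and infested groups right of the dotted line. In uninfested leaves the flooding and drought points do not overlap in any panel, whereas in infested leaves they overlap for comp769_c0_seq1, comp9608_c0_seq1 and comp18168_c0_seq1.

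Among the 10 largest rises at this level, contigs of 512 to 2557 bases with log2 fold changes from 1.82 to 3.52, one of 1844 bases followed the drought-low pattern. It had 96.6, 108 and 62.9 CPM in flooding and 5.99, 15.8 and 23.8 CPM in drought, against 109, 149 and 128 CPM in control-water leaves (log2 fold change 2.56 ± 0.47, edgeR adjusted p = 0.0405). In these 10 the control mean lay between flooding and drought in 7, above both in 2 and below both in 1. In infested leaves all 10 again had a positive log2 fold change, from 0.52 to 3.82.

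The 10 largest falls at this level, contigs of 511 to 2113 bases, had log2 fold changes from -8.45 to -3.89. One of 777 bases had 4.53, 3.40 and 4.22 CPM in flooding and 174, 41.3 and 149 CPM in drought, with control-water leaves at 2.09, 6.41 and 3.97 CPM. Drought was the treatment that stood apart, and the log2 fold change was -4.90 ± 0.58 (edgeR adjusted p = 0.0126). The same contig had 11.0, 4.98 and 10.6 CPM in infested flooding leaves and 184, 66.8 and 230 CPM in infested drought leaves. Another of 2113 bases had 4.45, 4.28 and 6.25 CPM in flooding and 85.6, 130 and 215 CPM in drought, and its control-water values of 21.6, 42.5 and 45.9 CPM fell between them (log2 fold change -4.84 ± 0.39, edgeR adjusted p = 0.00493). The control mean lay between the other groups in 7 of the 10 and below both in 3. In infested leaves 9 of the 10 had a negative log2 fold change, with a median of -1.23 over the 10.

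Contigs that hold many reads were also called, with smaller folds. Of those lower in flooding, the most abundant was 2714 bases long and the only called contig of at least 1000 CPM. It had 1242, 1350 and 905 CPM in flooding and 3058, 3437 and 3107 CPM in drought, with no overlap (log2 fold change -1.46 ± 0.20, edgeR adjusted p = 0.0133). Its control-water levels of 2654, 2065 and 2061 CPM were nearer to drought. A contig of 689 bases had 128, 29.3 and 69.4 CPM in flooding and 1540, 1588 and 1060 CPM in drought. That is a log2 fold change of -4.21 ± 0.55 (edgeR adjusted p = 0.0155), and the control-water leaves spread widely, at 120, 150 and 515 CPM. In infested leaves it had 1122, 1299 and 1230 CPM in flooding and 3505, 3775 and 2653 CPM in drought, so infested flooding leaves were close to uninfested drought leaves. A contig of 1532 bases had 174, 94.0 and 130 CPM in flooding and 1456, 1461 and 788 CPM in drought (log2 fold change -3.22 ± 0.33, edgeR adjusted p = 0.00663).

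Of the contigs higher in flooding, one of 3206 bases had 886, 1232 and 844 CPM in flooding and 395, 464 and 316 CPM in drought (log2 fold change 1.33 ± 0.21, edgeR adjusted p = 0.022). Control-water leaves, at 836, 885 and 757 CPM, were near the flooding values. One of 2256 bases showed the other arrangement, with 1384, 1080 and 982 CPM in flooding, 343, 525 and 574 CPM in drought and 462, 500 and 523 CPM in control-water leaves. There flooding stood apart (log2 fold change 1.26 ± 0.23, edgeR adjusted p = 0.0332). One of 1825 bases had 1043, 576 and 455 CPM in flooding and 192, 175 and 253 CPM in drought (log2 fold change 1.74 ± 0.32, edgeR adjusted p = 0.0343). The 10 most abundant higher contigs had log2 fold changes from 0.66 to 1.74, and the 10 most abundant lower contigs from -4.21 to -0.75. In infested leaves all 20 had the sign they had in uninfested leaves.

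The presence of reads differed for few contigs. In 46 contigs all 3 drought libraries held reads and no flooding library did, and in 13 the reverse was true. These counts carry no test, since only 1 of the 46 and 0 of the 13 had enough reads to be tested. The tested contig, 527 bases long, was called lower, with 0 reads in flooding and 2.29, 2.21 and 2.55 CPM in drought. It was at least 9.86-fold lower in flooding, taking 3 reads per flooding library as the limit of detection (edgeR adjusted p = 0.00808).

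Some contigs share an assembly component in their IDs. Whether such contigs come from 1 locus was not checked. Among tested contigs, 236 belonged to 115 assembly components with more than 1 tested contig. Of these 236, 8 were called (3.39%), each in a different component. In 5 of those 8 components the contigs had the same sign, and in 3 they had opposite signs. Over all 115 components, the contigs had the same sign in 63.

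Values near the threshold show what a call meant at this replication. The called contig with the highest adjusted p, 835 bases long, had 3.11, 1.43 and 2.49 CPM in flooding and 7.33, 6.63 and 5.18 CPM in drought (log2 fold change -1.45). The first contig past the threshold, 1328 bases long with an edgeR adjusted p of 0.0502, had 20.1, 32.3 and 20.6 CPM in flooding and 13.5, 12.1 and 10.8 CPM in drought (log2 fold change 1.0). Its groups did not overlap either.

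The control-water leaves, which took no part in the test, show on which side a difference lay. For the 189 higher contigs, the mean log2 CPM of control leaves was between flooding and drought in 118 (62.4%), above both in 48 (25.4%) and below both in 23 (12.2%). For the 457 lower contigs it was between in 300 (65.6%), above both in 83 (18.2%) and below both in 74 (16.2%). Over all tested contigs it was between in 27.8%. The called contigs were chosen for their distance between flooding and drought, and a wide distance by itself makes a control mean in between more frequent. The 27.8% is therefore not a like background. The control mean was nearer to drought than to flooding in 81 of the higher contigs (42.9%) and in 242 of the lower contigs (53.0%), against 50.5% over all tested.

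**Figure D3:**
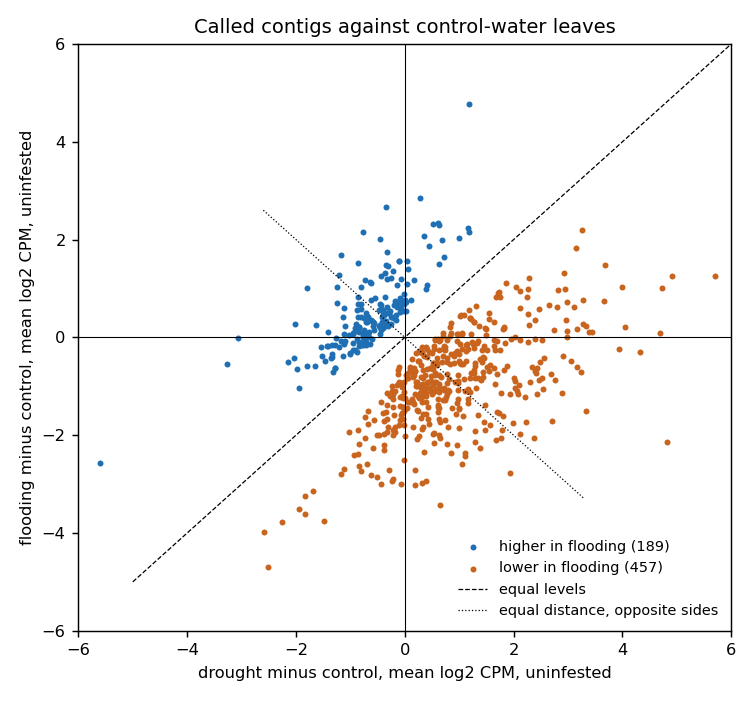
For each of the 646 called contigs, flooding minus control (vertical axis) against drought minus control (horizontal axis), both as mean log2 CPM of uninfested leaves, with dashed line for equal levels and dotted line for equal distance on opposite sides of control. Most points lie in the quadrants where flooding and drought depart from control in opposite directions: 118 of the 189 higher and 300 of the 457 lower contigs. Choosing contigs for a wide distance between flooding and drought itself favours these quadrants.

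As groups, the called contigs departed from control leaves on both sides. These levels describe the contigs chosen by the test and carry no test of their own for uninfested flooding and drought. Averaged over the 189 higher contigs, log2 CPM relative to uninfested control leaves was 0.511 ± 0.119 in flooding and -0.639 ± 0.0831 in drought (SD, n = 3 each). Averaged over the 457 lower contigs it was -0.905 ± 0.143 in flooding and 0.921 ± 0.0535 in drought (SD, n = 3 each). In summed CPM, the higher contigs took 21317 ± 1791 in flooding, 10630 ± 419 in drought and 16209 ± 733 in control leaves. The lower contigs took 10839 ± 767 in flooding, 33763 ± 1044 in drought and 19859 ± 1302 in control leaves (SD, n = 3 each).

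Infested leaves, in which the same contrast was measured on other plants, kept the order of flooding and drought at a smaller distance. The contigs were chosen for their uninfested difference, which by itself favours a smaller distance in other libraries. Averaged over the higher contigs, log2 CPM relative to uninfested control leaves was -0.140 ± 0.166 in infested flooding, -0.810 ± 0.127 in infested drought and -0.513 ± 0.0190 in infested control-water leaves. Averaged over the lower contigs it was 0.586 ± 0.0458 in infested flooding, 1.35 ± 0.166 in infested drought and 1.05 ± 0.162 in infested control-water leaves (SD, n = 3 each). The 3 infested flooding libraries lay below the 3 infested drought libraries for the lower contigs and above them for the higher contigs. For the lower contigs, all 3 infested groups lay above uninfested control leaves.

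**Figure D4:**
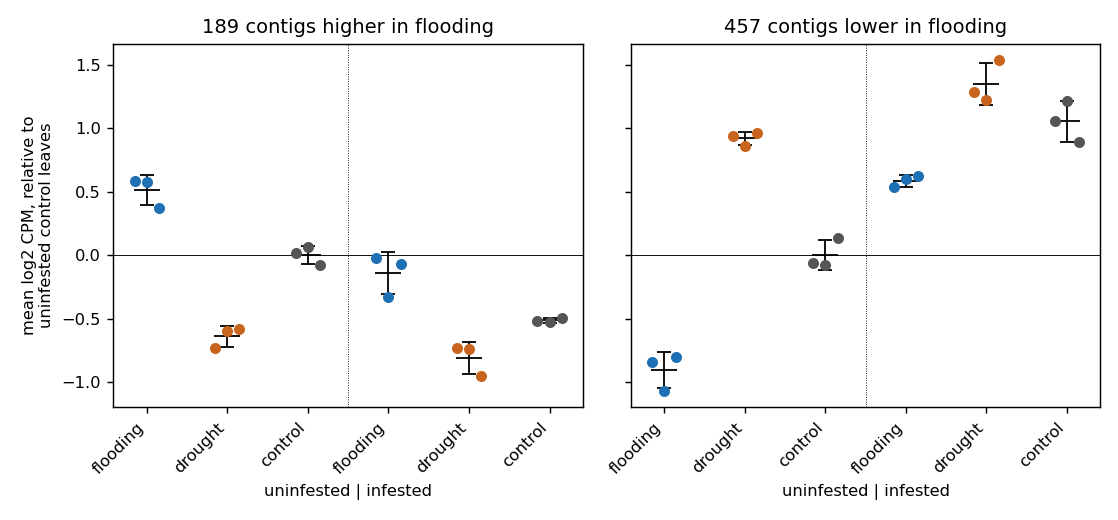
Mean log2 CPM over the 189 contigs higher and the 457 contigs lower in flooding, relative to uninfested control leaves, with a point per library and the mean ± SD of 3 libraries for each group. For the lower contigs, uninfested flooding is below control at -0.905, while infested flooding is above it at 0.586 and still below infested drought at 1.35.

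Contig by contig, the sign in infested leaves was that of uninfested leaves in 177 of 183 higher contigs tested in both (96.7%) and in 413 of 451 lower contigs (91.6%). Over all 18645 contigs tested in both it was the same in 61.0%. The size was smaller in infested leaves in 162 of the higher (88.5%) and 430 of the lower contigs (95.3%), against 54.6% of all. The 54.6% is not a like background, because the called contigs were chosen for their uninfested difference. The median log2 fold change of the higher contigs was 0.52 in infested and 0.99 in uninfested leaves. The median of the lower contigs was -0.59 in infested and -1.62 in uninfested leaves. In infested leaves a fold of at least 2 in the same direction, whatever the size in uninfested leaves, was found for 40 of the higher (21.9%) and 119 of the lower contigs (26.4%), against 2.94% of all contigs.

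These contigs had been chosen for their uninfested difference, so the reverse choice was made as well. Of the 646 contigs with the smallest p in infested leaves, 635 were tested in both. Their sign in uninfested leaves was the same in 570 (89.8%), and their size was smaller there in 65.2%. For those higher in flooding, the median log2 fold change was 0.75 in infested and 0.44 in uninfested leaves (n = 249). For those lower in flooding it was -1.01 in infested and -0.81 in uninfested leaves (n = 386). Across all 18645 contigs, the SD of the log2 fold change was 0.437 in infested and 0.577 in uninfested leaves. The log2 fold changes of both contrasts had a correlation of 0.39 across contigs (Spearman 0.32), given as a description because contigs are not independent replicates.

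**Figure D5:**
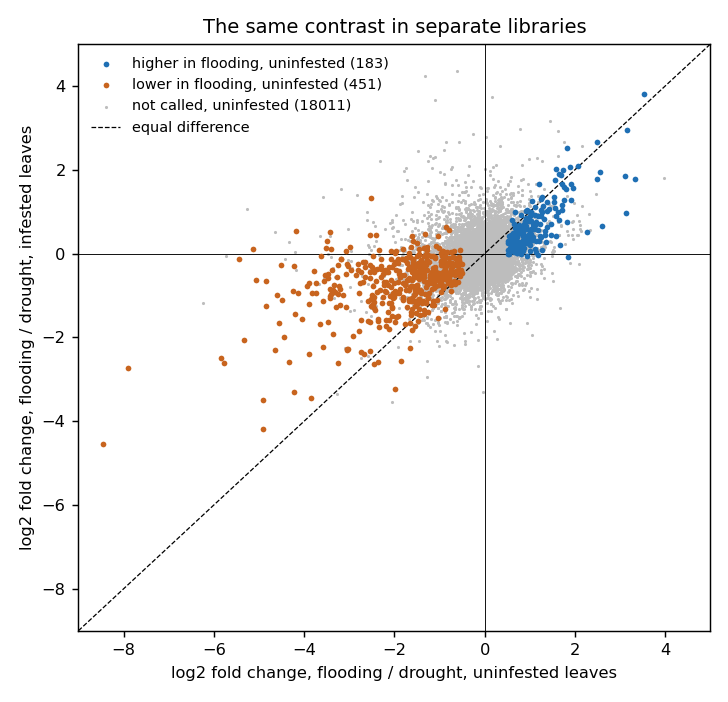
Log2 fold change of flooding over drought in infested leaves (vertical axis) against the same in uninfested leaves (horizontal axis), 1 point per contig tested in both, with the called contigs coloured. Called contigs lie mostly in the quadrants of equal sign, 177 of 183 for the higher and 413 of 451 for the lower, and mostly nearer to 0 on the infested axis. Choosing contigs for their uninfested difference itself favours smaller infested values.

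The infested contrast tested on its own gave few calls. Of 18894 contigs, 6 were called (0.0318%), 3 higher and 3 lower in infested flooding, and 2724 had an unadjusted p under 0.05. DESeq2 called 568 of them, 216 higher and 352 lower. Leaving out 1 library changed the edgeR count to 0 (flooding replicate 1, with 2159 contigs at an unadjusted p under 0.05, or drought replicate 2, with 1903), to 3 (drought replicate 1 or 3), to 56 (flooding replicate 2) or to 179 (flooding replicate 3). Of these 179, 110 were higher and 69 lower, the opposite balance to that of the DESeq2 calls. The smaller number of calls in infested leaves is not a test of a difference from uninfested leaves.

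Of these 6 contigs, 4 were called in uninfested leaves too, against 3.32% of all contigs tested there. One of 2557 bases, higher in flooding, had 60.4, 54.2 and 45.5 CPM in infested flooding and 9.71, 10.5 and 7.58 CPM in infested drought (log2 fold change 2.53 ± 0.17, edgeR adjusted p = 0.00651). In uninfested leaves it had 174, 165 and 134 CPM in flooding and 41.9, 52.0 and 39.0 CPM in drought (log2 fold change 1.83 ± 0.16, edgeR adjusted p = 0.00474). It was lower in infested than in uninfested leaves under both treatments, and the order of flooding and drought was the same. One of 1296 bases had 196, 224 and 200 CPM in infested flooding and 67.6, 67.4 and 77.3 CPM in infested drought. In uninfested leaves it had 472, 338 and 282 CPM in flooding and 63.6, 126 and 124 CPM in drought (log2 fold change 1.80 ± 0.31, edgeR adjusted p = 0.0286). One of 1948 bases had a log2 fold change of 1.0 in both infested and uninfested leaves (edgeR adjusted p = 0.0462 and 0.0165). The fourth, of 1743 bases, had -1.73 in infested and -1.54 in uninfested leaves (edgeR adjusted p = 0.0462 and 0.0314).

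The difference between the infested and the uninfested contrast was tested directly in the 12 flooding and drought libraries. It was called in 9 of 19945 contigs (0.0451%; edgeR adjusted p from 0.00493 to 0.0464), and 1658 had an unadjusted p under 0.05, 910 positive and 748 negative. All 9 differences were positive and 0 negative, while DESeq2 called 129 positive and 9 negative ones. All 9 contigs were among those called lower in flooding in uninfested leaves, a result that shares its 6 libraries with this test. Their log2 fold changes ran from -0.97 to 0.30 in infested leaves and from -4.13 to -2.97 in uninfested leaves. In the infested libraries flooding and drought overlapped in 5 of the 9. Leaving out flooding replicate 3 of the uninfested samples raised the count to 34. It fell to 5 without uninfested flooding replicate 2 or uninfested drought replicate 2, to 3 without infested drought replicate 1, to 2 without infested flooding replicate 3 or infested drought replicate 2, and to 1 without infested flooding replicate 1 or infested drought replicate 3.

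The largest of these differences, among contigs whose mean over the 12 libraries reached 8 CPM, was that of comp9608_c0_seq1, 884 bases long. In infested leaves it had 15.6, 18.1 and 18.8 CPM in flooding and 19.1, 11.7 and 12.0 CPM in drought. In uninfested leaves it had 0.587, 0.396 and 0.527 CPM in flooding and 7.99, 5.56 and 3.65 CPM in drought. The groups overlapped with feeding and were apart without it (difference of log2 fold changes 3.77 ± 0.45, SE; edgeR adjusted p = 0.0179). Over the 20 alternatives the adjusted p ran from 2.95e-09 to 0.0753, and 6 of them lost the call. These were the fit to all 18 libraries and those without uninfested flooding replicate 2 (0.0531), infested flooding replicate 1 (0.0507) or 3 (0.0664), or infested drought replicate 2 (0.0732) or 3 (0.0753).

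The second was comp18168_c0_seq1, 1281 bases long. It had 236, 160 and 185 CPM in infested flooding and 194, 164 and 253 CPM in infested drought, against 9.48, 3.09 and 10.5 CPM in uninfested flooding and 80.4, 105 and 100 CPM in uninfested drought. The difference of log2 fold changes was 3.55 ± 0.48 (SE; edgeR adjusted p = 0.0432). This call was near the threshold: 12 of 20 alternatives lost it, among them each of 9 that left out 1 library (uninfested flooding replicate 1, uninfested drought replicates 2 and 3, and all 6 infested libraries), with adjusted p from 0.0521 to 0.204. A contig of 1787 bases had the smallest adjusted p of the 9 (0.00493). It had 15.5, 16.2 and 13.4 CPM in infested flooding and 28.2, 25.6 and 33.0 CPM in infested drought, without overlap. In uninfested leaves it had 1.17, 1.03 and 0.452 CPM in flooding and 14.6, 15.3 and 16.7 CPM in drought. Here the distance between flooding and drought was smaller with feeding, by 3.17 ± 0.30 on the log2 scale.

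The called contigs were also set against the response to caterpillar feeding in control-water plants, a comparison of 6 libraries that are not in the flooding and drought contrast. Feeding raised 1568 of 18873 contigs (8.31%) and lowered 825 (4.37%; edgeR adjusted p under 0.05). Of the contigs lower in flooding, 441 were tested for feeding, and 202 of them were raised (45.8%) and 1 was lowered (0.227%). Of the contigs higher in flooding, 183 were tested, and 2 of them were raised (1.09%) and 53 were lowered (29.0%). Over all contigs tested in both, 8.11% were raised and 4.43% were lowered. Seen from the feeding side, the 202 contigs were 13.4% of those raised and the 53 were 6.44% of those lowered. The median log2 response to feeding was 0.81 for the contigs lower in flooding, with 393 positive (89.1%), and -0.41 for the contigs higher in flooding, with 31 positive (16.9%). Over all contigs tested in both, the median was -0.0093, with 9093 positive (48.9%).

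These shares depended on which control libraries entered the feeding comparison. Without uninfested control replicate 1 or 2, 32.9% or 31.6% of the lower contigs were raised by feeding. The share of the higher contigs lowered by feeding was 19.7% or 13.1% without the same libraries.

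Among the contigs lower in flooding, those raised by feeding in control-water plants had the smaller median contrast in infested leaves. For the 202 that were lower in flooding and raised by feeding, the median log2 fold change of flooding over drought was -0.46 in infested and -1.77 in uninfested leaves. For the 238 that were lower in flooding and not called for feeding, it was -0.73 in infested and -1.53 in uninfested leaves. The sign was kept in infested leaves in 87.6% of those raised and 95.3% of those not called. For the contigs higher in flooding, the 53 that feeding lowered had medians of 0.54 in infested and 1.03 in uninfested leaves, and the 128 not called had 0.51 in infested and 0.97 in uninfested leaves. The difference between these subgroups was not tested.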

How the data were processed

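Leaf RNA was measured by RNA-seq in 18 samples, and groups and replicate numbers came from the labels. The deposited table of raw counts, made by the authors, gives whole reads per assembled contig, and its columns were tied to samples by the column number in each label. The submitters' processing notes name Bowtie 0.12.7 and DESeq. How contigs were assembled and reads counted, and whether strand was used, is not given in the sources used here. A second deposited table holds a normalized signal for 22410 contigs. On the values, its entries equal the raw count per kilobase times 1 factor per library (largest relative departure 0.0000000016). It entered no main test and was used only for the limma alternatives. None of the 24158 contig IDs was found among the 35381 genes of the reference table (0 matched), so no gene names, positions or sequences are given.

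Counts were tested with edgeR 4.0.16 in R 4.3.3 (TMM scaling, filterByExpr with a minimum count of 10 and a minimum total of 15, robust quasi-likelihood fit, Benjamini-Hochberg adjustment over all contigs tested, calls at adjusted p under 0.05). The main fit used only the 6 uninfested flooding and drought libraries, with 4 residual degrees of freedom, and the difference between contrasts used 12 libraries. The kept contigs held a median of 99.8807% of reads. The common biological coefficient of variation was 20.8%. The SE was derived from the F statistic (size of the log2 fold change over the root of F). Levels are CPM with TMM scaling over all 18 libraries; the prior count on the log2 scale was 2. Totals over all 18 ran from 6717218 to 16056241 reads. Counting error is only the least spread that such counts can have. All replicate pairs differed by more than counting noise (chi-square per degree of freedom from 12.8 to 42.6 in the 6 libraries).

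Contigs named by ID are the 2 largest rises and 2 largest falls of called contigs whose groups did not overlap and whose mean reached 8 CPM, and the 2 largest called differences between contrasts, whose mean over those 12 libraries reached 8 CPM. The 10 largest and 10 most abundant calls in each direction, and those nearest the threshold, were described without ID. The other contigs described, from the infested contrast and the difference between contrasts, and that with 0 reads in flooding, were chosen after their values were seen. The comparison and these rules were chosen with earlier results of these data known. Whether shared replicate numbers mark paired samples is not stated. The correlations of same-numbered deviations were -0.18, 0.14 and -0.18, without a common sign. With 3 libraries per group they cannot exclude a shared block. The alternatives were DESeq2 1.42.0, limma 3.58.1, other scalings and filters, larger fits, a sum per component, a replicate block and each library left out. Limma ran on the log2 of the deposited normalized signal per kilobase, with a pseudocount of 1 or 0.1. The steps were tested on simulated data, in which 54 of 100 true 2-fold and 85 of 100 true 4-fold changes were called. In the same simulation 13 unchanged contigs were called as well.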

Additional observations from a re-analysis of the deposited data

Results flagged for a closer look

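The difference between flooding and drought was itself different in infested and uninfested leaves for 9 contigs (edgeR quasi-likelihood test of the difference on 12 libraries). In each, uninfested flooding was far below uninfested drought and infested flooding was much nearer to infested drought. The infested minus the uninfested log2 fold change was 3.77 for comp9608_c0_seq1 and 3.55 for comp18168_c0_seq1. It was 3.52 for a contig of 648 bases, 3.17 for one of 1787 bases and 3.12 for one of 1064 bases. It was 2.97 for a contig of 1358 bases, 2.96 for one of 908 bases, 2.48 for one of 673 bases and 2.26 for one of 1144 bases.

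Feeding in control-water plants raised all 9 contigs (edgeR adjusted p under 0.05), against 8.31% of contigs tested. All 9 were among the contigs called lower in flooding in uninfested leaves. Of those tested for feeding, 45.8% were raised, which is the nearer background. Their group means ran from 8.15 to 194 CPM in infested flooding, from 13.9 to 203 CPM in infested drought, from 0.231 to 8.27 CPM in uninfested flooding and from 2.72 to 95.1 CPM in uninfested drought. The uninfested control mean lay between uninfested flooding and drought in 7 of the 9, against 300 of all 457 contigs called lower (65.6%). The infested contrast alone called none of the 9 (edgeR adjusted p from 0.075 to 0.904).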

How the results depend on the processing

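The 646 calls (461 at 2-fold) became 1460 (799) with DESeq2, 430 (258) with a stricter filter, 301 (270) with the replicate number as a block, 1550 (761) with all 18 libraries in 1 fit and 1119 with the 12 flooding and drought libraries in 1 fit, and stayed within 1.5 times under other scalings, no filter, limma and a sum per component. DESeq2 called all 646 of them, and the fit to 18 libraries called 599. Leaving out 1 library gave 149 to 1067 calls and 144 to 594 at 2-fold. The 6 infested calls became 568 with DESeq2, 33 with no filter, 3 with a stricter filter, 2 with the block, 162 with 18 libraries and 39 with 12, and 0 to 179 with 1 library left out. The 9 calls for the difference became 138 with DESeq2, 5 with a stricter filter, 4 with the block, with 18 libraries or with limma, and 1 to 34 with 1 library left out. The share of higher contigs with the same sign in infested leaves (96.7%) was 90.7% with DESeq2, 92.5% with 18 libraries and 83.6 to 100% with 1 library left out. That of lower contigs (91.6%) was 86.4% with DESeq2 and 79.7 to 93.8% with 1 left out. The share of lower contigs raised by feeding (45.8%) was 52.9% with a stricter filter, 40.0% with 18 libraries and 31.6 to 56.0% with 1 left out, and that of higher contigs lowered by feeding (29.0%) was 13.1 to 38.1% with 1 left out. The cause was not tested. For the contigs named by ID, no direction was reversed in any alternative. Other contigs were not checked for this. Whether the replicate numbers mark paired samples could not be decided from so few libraries. Of the flooding libraries, 1 of 3 correlated best with the drought library of its own number. With the block, comp21_c0_seq1 was no longer called (edgeR adjusted p = 0.104).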
